A study of Mus musculus with 6 samples.

Results

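The genes examined here are 8 neighbours on mouse chromosome 18, *Ndst1*, *Cd74*, *Tcof1*, *Arsi*, *Camk2a*, *Slc6a7*, *Cdx1* and *Slc26a2*, out of 19233 genes with a symbol in the table. They were selected on the change of *Cdx1*, *Slc6a7* and *Camk2a* after OHT in the authors' own comparison, together with genes in and around that run. That comparison is not used here, so no direction or size of change is given for any gene. What follows is the level of each gene pooled over all libraries, and its position among its neighbours and relatives. The choice used this level directly only to pick between entries of 1 gene. The level averages untreated and OHT libraries, so for *Cdx1*, *Slc6a7* and *Camk2a* it is not independent of the change they were selected on. The study isolated nuclear RNA, which is rich in nascent unspliced transcripts, from mouse embryonic stem (ES) cells of the genotype *Rybp* fl/fl;*Yaf2*-/-, obtained by expanding single colonies after genome editing of *Yaf2*. The untreated group (UNT) has 3 biological replicates. The OHT group also has 3, from cells kept for 96 hr in 4-hydroxytamoxifen at 800 nM so that the floxed *Rybp* is deleted. All 6 libraries share the loss of *Yaf2*, and the series holds no OHT-treated group without floxed *Rybp*, so an effect of OHT and one of *Rybp* deletion cannot be told apart in this design.

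RYBP and its paralog YAF2 are subunits of variant forms of Polycomb repressive complex 1, which places ubiquitin on histone H2A at the promoters of many developmental genes. Polycomb complexes hold such genes at low transcription in ES cells. *Cdx1* is a developmental regulator and encodes a caudal-type homeodomain factor that patterns the posterior embryo and the intestine. Whether Polycomb complexes hold *Cdx1* low in these cells was not tested here. Its neighbours have varied roles, from neuronal signalling to ribosome production, so the genes examined here mix tissue-restricted and housekeeping genes.

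The measure available was the base mean, the read-pair count of an entry after the authors' normalization for library size, averaged by the authors over all libraries. It is 1 value for UNT and OHT together. No value per library was available, so a spread between replicates could not be computed, depth per library is unknown, and neither the order of close levels nor a difference between UNT and OHT could be tested. Of 20633 entries, 19198 had a base mean above 0, with a median of 306.7 and quartiles of 25.9 and 1260. Because a base mean grows with the length of a gene, genes were compared by the base mean per kb of gene span, introns included. Its median over the 19035 entries above 0 with a known span was 12.2 normalized counts per kb. The span is that of the whole gene, also where an entry stands for a shorter transcript. The level per kb of such an entry is then too low. As these are bulk cultures, fewer cells of a type and less RNA per cell cannot be told apart.

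The cells had the transcripts of ES cells. *Pou5f1*, *Nanog*, *Sox2* and 4 other ES cell markers had base means from 2127 to 12088, and 1 of the 8 markers fixed for this cell type, *Dppa5a*, was not matched. Summed over each list, the base mean was 188.9 for 4 trophoblast markers, 443.5 for 4 primitive endoderm markers, 831.4 for 4 fibroblast markers and 37.1 for 4 markers of antigen presenting cells. For 4 neuronal markers it was 2693, to which *Map2* contributed 1791. These sums do not allow for gene length. Per kb of span, *Map2* stood at 6.70 and *Tubb3* at 59.77, near the ES cell marker *Esrrb* at 66.05. The other matched ES cell markers ran from 200.9 to 1627 per kb. The fibroblast markers *Col1a1* (21.96) and *Thy1* (21.25) also lay above the median per kb, and the remaining markers of other cell types lay under it. *Yaf2*, removed in every library, had a base mean of 3.24. *Rybp* had a base mean of 13983 over UNT and OHT together, and a pooled value cannot check which libraries carried the deletion.

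The neighbourhood spans 527.1 kb of chromosome 18 (mm10, 60684494 to 61211596) and holds 12 genes of the table, the 8 members and 4 genes between them. *Tcof1*, *Slc26a2* and *Ndst1* lay above the median base mean of all entries, whereas *Cdx1*, *Slc6a7*, *Camk2a*, *Cd74* and *Arsi* lay below it. The same 3 members lay above the median and the same 5 below it when levels were taken per kb, but *Ndst1* was then close to the median, at percentile 50.9, and fell to percentile 39.8 where entries under a base mean of 10 were left out. Between the highest and the lowest member the base mean differed 127-fold, and the base mean per kb differed 64.5-fold.

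**Figure D1:**
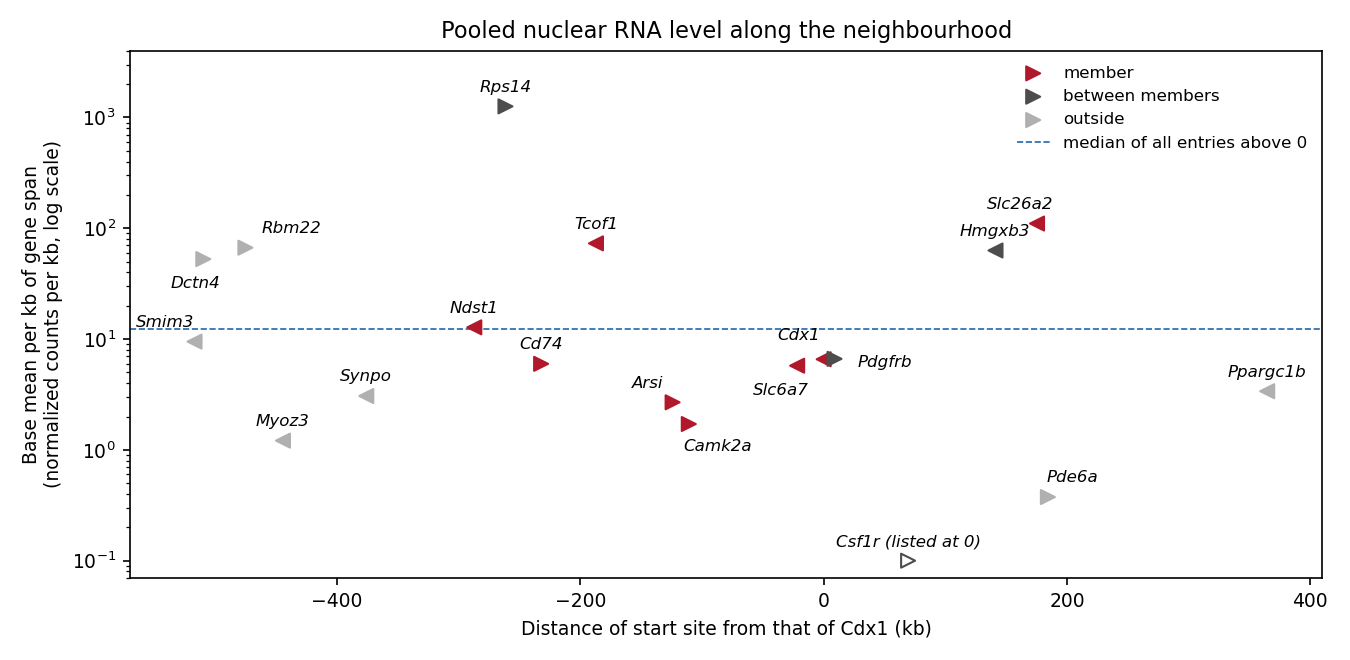
Base mean per kb of gene span (normalized counts per kb, log scale) against the distance of each gene's start site from that of *Cdx1* (kb), with triangles pointing in the direction of transcription. The stretch from *Arsi* to *Pdgfrb* stays under the median of all entries (12.2, dashed line), *Tcof1* on its left and *Hmgxb3* and *Slc26a2* on its right stand above it, and *Csf1r* is listed at 0. *Cd74*, beyond *Tcof1*, and most genes outside the members also lie under the median.

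*Cdx1* lies on the minus strand from 61018862 to 61036199 and has 3 exons. Its base mean was 114.0, at percentile 37.7 of all entries above 0 (exact 95% binomial interval 37.0 to 38.4, which covers only the number of entries compared). Per kb of span its level was 6.58 normalized counts, at percentile 41.5. The homeobox gene was thus measured at a low but non-zero pooled level in these ES cells. Among its relatives, *Cdx2*, a regulator of trophoblast and hindgut, had a higher level per kb of span (11.6) and *Cdx4*, which acts in the posterior embryo, a lower one (0.565). Per kb of exon the order of *Cdx1* and *Cdx2* turned, with 65.1 normalized counts for *Cdx1* and 32.5 for *Cdx2*, so which of them is the more abundant was not settled.

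*Slc6a7* encodes a sodium-dependent transporter that takes up proline at excitatory synapses in the brain. The gene starts 21.8 kb from the start site of *Cdx1*, on the same strand (60995376 to 61014416), and a gap of 4.45 kb separates them. Its base mean was 109.5, at percentile 37.2, and its level per kb was 5.75, so that *Cdx1* exceeded it 1.14-fold per kb. In the Slc6a family of sodium- and chloride-dependent transporters, *Slc6a7* ranked 7 of 18 genes per kb of span. The taurine transporter *Slc6a6* (88.6 normalized counts per kb) and the creatine transporter *Slc6a8* (72.8) led the family. The noradrenaline, dopamine and serotonin transporters *Slc6a2*, *Slc6a3* and *Slc6a4* stood lower than *Slc6a7*, at 0.723, 0.651 and 0.246. The family median was 0.687 and 1 gene, *Slc6a18*, was listed at 0.

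*Camk2a* encodes the alpha subunit of calcium/calmodulin-dependent protein kinase II, a kinase of the postsynaptic density needed for synaptic plasticity. It lies on the plus strand from 60925307 to 60988152, and its 3′ end is 7.22 kb from that of *Slc6a7*, which is transcribed towards it. It is the 1 member with several entries: the base mean was 107.5 for the longer-exon entry kept here and 76.7 for the other, a ratio of 1.40, and reads common to both may have been counted in each. The base means of *Camk2a*, *Slc6a7* and *Cdx1* lay within 1.06-fold of each other with this entry. The range was 1.49-fold with the other entry of *Camk2a* and 1.68-fold with both summed, settings chosen after seeing the data. Since *Camk2a* spans 62.9 kb, its level per kb was 1.71, the lowest of the 8 members, and the same 3 genes differed 3.84-fold per kb. The other kinase subunits were all higher per kb: *Camk2g* stood at 40.3, *Camk2b* at 10.4 and *Camk2d* at 5.74 normalized counts per kb. *Camk2a* was also the lowest of the 4 per kb of exon.

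*Arsi*, which encodes arylsulfatase I, lies 5.80 kb upstream of *Camk2a* on the same strand (60911991 to 60919506). It had the lowest base mean of the members, 20.2, at percentile 23.3. Its short span raised its level per kb to 2.69, at percentile 32.4. Of the 12 sulfatase genes matched, it ranked 9 per kb of span and 12 per kb of exon. *Arsa*, the lysosomal enzyme that degrades sulfatide, reached 91.3 normalized counts per kb of span, and *Sulf1* and *Sulf2*, which remove sulfate from heparan sulfate outside the cell, reached 21.1 and 55.1. The genes from *Arsi* to *Cdx1* form a run of 4 within 124.2 kb whose levels per kb ran from 1.71 to 6.58.

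*Pdgfrb*, the platelet-derived growth factor receptor beta, adjoins this run on the side of *Cdx1*. The 2 genes are transcribed away from each other with 8.93 kb between them, and their levels per kb were 6.58 for *Cdx1* and 6.63 for *Pdgfrb*. *Csf1r*, the macrophage colony-stimulating factor receptor, follows and is listed at 0. *Hmgxb3*, an HMG-box gene, then stood at 63.3 normalized counts per kb, at percentile 80.5. On the other side, 63.0 kb separate *Arsi* from *Tcof1*, and the level per kb was 27.2-fold higher in *Tcof1*. Nearest to the run, the change from low to high levels fell between *Tcof1* and *Arsi* on one side and between *Csf1r* and *Hmgxb3* on the other. Low levels were not confined to this stretch, as *Cd74*, beyond *Tcof1*, stood at 5.98 normalized counts per kb. Within 200 kb outside the members, *Smim3* (9.485), *Myoz3* (1.21), *Synpo* (3.06), *Pde6a* (0.375) and *Ppargc1b* (3.38) also lay under the median per kb. *Dctn4* (52.7) and *Rbm22* (66.8) lay above it.

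*Tcof1* encodes treacle, a nucleolar protein required for transcription of ribosomal RNA genes. It had the highest base mean of the members, 2575 at percentile 86.8, and a level per kb of 73.1 at percentile 83.1. Among 7 genes matched from a list of RNA polymerase I factors it ranked 6 per kb of span. *Nolc1* (368.5), a nucleolar phosphoprotein, and *Ubtf* (200.3), which binds ribosomal RNA gene promoters, led the list. *Rrn3* (140.1) also stood higher, *Polr1b* (81.9) and *Polr1a* (76.2) were only slightly above *Tcof1*, and *Taf1a* (48.4) was lower. *Cd74* ends 1.08 kb from the 3′ end of *Tcof1*, and the level per kb was 12.2-fold higher in *Tcof1*. *Cd74* encodes the invariant chain, the chaperone of MHC class II molecules in antigen presenting cells. Its base mean was 52.6, at percentile 30.6, and its level per kb was 5.98. *H2-DMa* was the 1 gene of the 6 matched in the class II list with a higher level per kb (10.3), while *H2-Ab1* stood at 5.45, *H2-Eb1* at 3.29 and *H2-Aa* at 0.309. The class II transactivator gene *Ciita* had 0.205 normalized counts per kb. Of the markers of antigen presenting cells outside this class, *Ptprc* had a base mean of 1.80 and *Csf1r* was listed at 0.

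**Figure D2:**
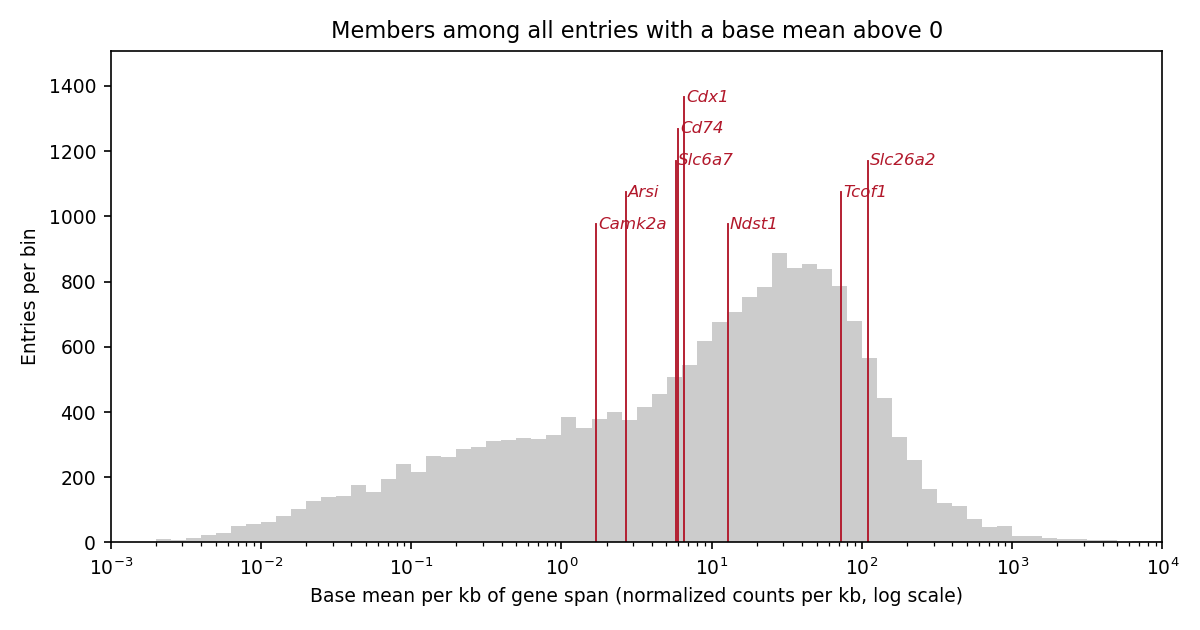
Number of entries per bin of base mean per kb of gene span (log scale), for entries above 0, with a red line at each member. *Camk2a*, *Arsi*, *Slc6a7*, *Cd74* and *Cdx1* stand left of the peak between 1.71 and 6.58, *Ndst1* is near the median at 12.8, and *Tcof1* and *Slc26a2* stand right of the peak at 73.1 and 110.3.

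*Ndst1* and *Slc26a2*, the outermost members, both serve the making of sulfated glycans. *Ndst1* encodes an N-deacetylase and N-sulfotransferase that starts the modification of heparan sulfate. Its base mean of 823.6 was at percentile 67.1, and its level per kb of 12.8 was near the median, at percentile 50.9. In its family *Ndst2* was higher per kb of span (32.5) and lower per kb of exon (90.3 against 135.7 for *Ndst1*), and *Ndst3* (0.313) and *Ndst4* (0.00223) were far lower. The RefSeq span of *Rps14*, a ribosomal protein gene transcribed away from *Ndst1*, begins 25.6 kb from it, although GENCODE extends *Rps14* over 1938 bp of *Ndst1* on the opposite strand. *Rps14* had the highest level per kb of the neighbourhood, 1259 normalized counts.

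*Slc26a2* encodes the sulfate transporter mutated in diastrophic dysplasia, which supplies cells with sulfate for proteoglycans. Its base mean was 1626, at percentile 79.6. With 110.3 normalized counts per kb it had the highest level per kb of span among the members, at percentile 89.6, and it ranked 1 of 11 genes in the Slc26a family by span and by exon length. Next in the family by span came *Slc26a10* (15.4) and *Slc26a11* (11.0), and the family median was 1.05. Exons make up 53.0% of the span of *Slc26a2*, against 7.91% to 39.6% in the other members. Per kb of exon it fell to percentile 59.8, and *Tcof1* became the highest member.

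**Figure D3:**
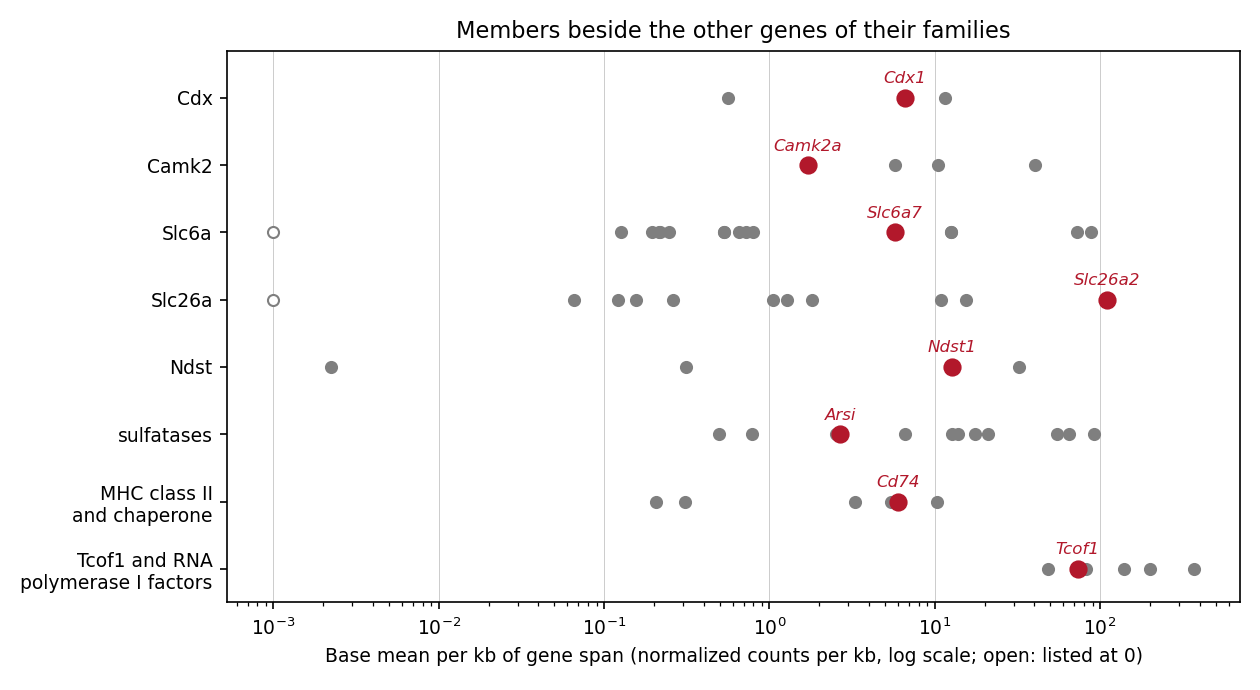
Base mean per kb of gene span (log scale) for each matched gene of 8 families, with members in red, other genes in grey and genes listed at 0 as open points. *Slc26a2* leads its family, *Camk2a* is the lowest of its family, and the remaining members stand between.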

How the data were processed

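Nuclear RNA-seq libraries of 3 UNT and 3 OHT samples were grouped by their titles. The authors discarded rRNA reads (bowtie2), used STAR on mm10 with bowtie2 for reads that STAR left unmapped, counted read pairs over a non-redundant refGene set and applied DESeq2. Versions are not given in the sources used here. The base mean was used as a signal, deposited as 1 value per entry for all libraries together. The other deposited columns hold the authors' comparison of OHT with UNT (log2 fold change, standard error, statistic, p-value, adjusted p-value and a threshold flag) and were not used. Tests planned for counts per library were therefore not run.

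Symbols and gene spans were taken from RefSeq for GRCm38.p6 (20446 of 20633 matched), the assembly of mm10. Strand, exon number and exon length came from GENCODE vM21. For a gene with several entries, the one with the highest base mean was kept. A percentile is the percentage of entries above 0 that lie below a gene. Named genes were the members, all genes between them and within 200 kb outside them, family lists, markers and the targeted genes. Members and lists were chosen with earlier results of these data known. The ranking was tested on simulated data. Python 3.11.15, numpy 2.4.6, pandas 2.3.3, scipy 1.17.1 and matplotlib 3.10.9 were used. Alternatives were other sets of entries, exon length and summed entries.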

Additional observations from a re-analysis of the deposited data

How the results depend on the processing

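No paired analysis was possible because the deposited level is 1 mean over all libraries. The count tests, their normalization and filter alternatives, the replicate block and leaving out each replicate were not run. Depth and replicate error are unknown, so only the placement of levels was recomputed.

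With 1 entry per gene, the base mean percentile of each of the 8 members stayed within its interval. Over every entry, those at 0 included, base mean percentiles were 69.4 for *Ndst1*, 35.5 for *Cd74*, 87.7 for *Tcof1*, 28.6 for *Arsi*, 41.4 for *Camk2a*, 41.6 for *Slc6a7*, 42.0 for *Cdx1* and 81.0 for *Slc26a2*. Per kb they were, in the same order of genes, 54.3, 44.5, 84.2, 37.1, 33.3, 44.1, 45.6 and 90.3. Where entries under a base mean of 10 were left out, the base mean percentiles were 59.6, 14.8, 83.8, 5.78, 22.7, 22.9, 23.5 and 75.0, and per kb 39.8, 27.0, 79.2, 17.8, 13.6, 26.5, 28.4 and 87.2. These shifts follow from adding or removing low entries. Under this minimum *Ndst1* fell below the median per kb. Per kb of exon the percentiles were 52.3 for *Ndst1*, 35.7 for *Cd74*, 80.1 for *Tcof1*, 20.6 for *Arsi*, 30.4 for *Camk2a*, 34.3 for *Slc6a7* and 59.8 for *Slc26a2*, and that of *Cdx1* stayed within its interval. Summing its entries gave *Camk2a* a base mean of 184, and the other 7 members have 1 entry each.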
